A study of Mus musculus with 8 samples.

Results

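The conjugating enzymes described here are the glutathione transferases, the UDP-glucuronosyltransferases and the cytosolic sulfotransferases, measured in intestine and colon of mice that did or did not overexpress Nanog. Members were all genes whose symbol on the array starts with Gsta, Gstk, Gstm, Gsto, Gstp, Gstt, Gstz, Mgst, Ugt1, Ugt2 or Sult followed by a digit. They are 49 of the 16593 genes with a symbol on the array, 24 of them Gst or Mgst, 13 Ugt and 12 Sult. A probe counted as above background where its detection p-value was below 0.01, and a gene was tested if its probe met this on both arrays of at least 1 group. 33 of the 49 members met this (22 Gst or Mgst, 6 Ugt and 5 Sult), and so did 8607 genes in all.

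The data are 8 Illumina bead arrays, 1 per RNA sample, where the brightness of beads that carry a matching probe reads a transcript's level. Each tissue had a group without and a group with Nanog, a homeobox protein of embryonic stem cells, which makes 4 groups of 2 biological replicates. Not given in the sources used here are the strain, the age, the way, site and duration of Nanog expression, the segment of intestine, and whether both tissues were taken from 1 set of animals. The arrays read RNA in bulk, so fewer cells of a type and less RNA per cell cannot be told apart.

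Conjugating enzymes attach a water-soluble group to drugs, dietary chemicals, hormones and bile constituents, so that these can be exported and excreted. Glutathione transferases use glutathione, glucuronosyltransferases use UDP-glucuronic acid and sulfotransferases use the sulfate donor PAPS. In the gut these enzymes are made mainly by absorptive epithelial cells, whose enzyme set differs along the length of the tract.

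Facts of the arrays bear on every value below. Array medians ranged from 84.6 to 107.7 intensity units, and 10652 to 11993 of 25697 probes per array were above background. Replicate 2 of intestine with Nanog had the lowest value of both. The only Nanog probe was below background on all 8 arrays (detection p-values from 0.172 to 0.817), so it does not check the Nanog labels. The tissue labels were checked against marker lists. Of 5 tested enterocyte markers 4 were called lower in colon without Nanog, among them the apolipoproteins Apoa1 and Apoa4, and all 6 tested colonocyte markers stood higher in colon, 3 of them past the threshold. The probes of Fabp1 and Fabp2, which enterocytes express strongly, were below background on all 8 arrays, so a silent probe here does not show that a transcript was absent.

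Of the 33 tested members 30 were above background on all 8 arrays, against 77.2% of all tested genes. The other 3 were Gsto2 and Ugt2b36, each above background on 6 arrays, and Ugt2a3, above background on the 4 intestine arrays only. The 16 members that were not tested are Gstm3, Gstt4, Ugt1a2, Ugt2a1, Ugt2a2, Ugt2b1, Ugt2b5, Ugt2b37, Ugt2b38, Sult1b1, Sult1c1, Sult1e1, Sult2a6, Sult2a8, Sult3a1 and Sult5a1. Of these Gstm3 was above background on 2 arrays, and the probes of the other 15 on none. All levels below are normalized log2 intensities, all differences are log2 differences with SE and n = 2 arrays per group, and all adjusted p-values are Benjamini-Hochberg values over 8607 genes from limma's moderated test, with a gene called at a value under 0.05.

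**Figure D1:**
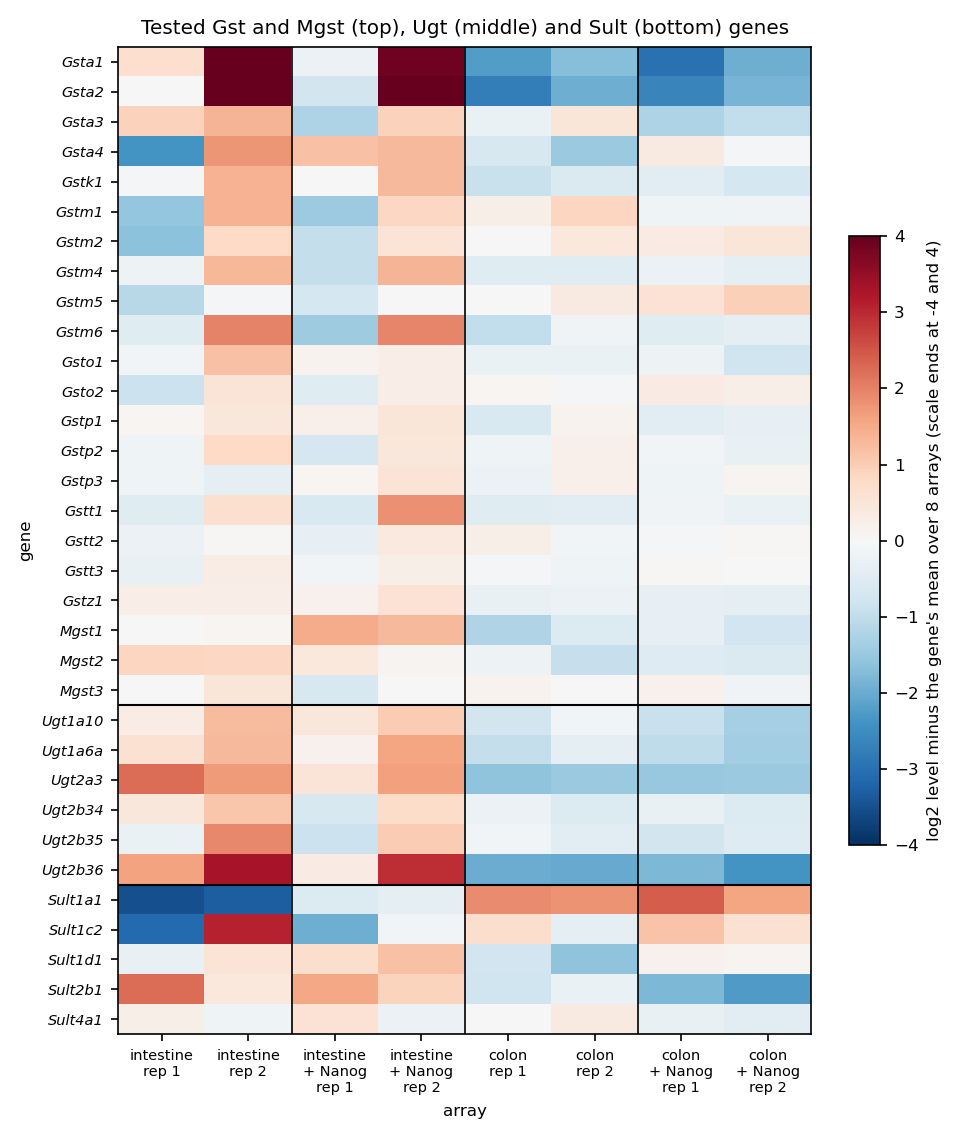
Level of each of the 33 tested members on each of the 8 arrays, as the normalized log2 intensity minus the gene's mean over the arrays, with colours ending at -4 and 4. Gsta1 and Gsta2 are highest on the arrays of replicate 2 in intestine, the Ugt genes are mostly above their mean in intestine, and Sult1a1 is above its mean on the 4 colon arrays.

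The first question of the design is what differs with Nanog in intestine. The sulfotransferase Sult1a1, which sulfates phenols, was the only member called, at 7.73-fold higher with Nanog. The other 32 members did not pass. The count of 1 in 33 stands beside 0.163% of all genes called in this comparison, 14 of 8607 (0.139% higher, 0.0232% lower). At an unadjusted p under 0.05 there were 2 members, beside 8.69% of all genes. The median log2 difference of the 33 members was -0.08, beside -0.01 for all genes tested, and 14 members had higher and 19 lower values.

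Sult1a1 had the levels 6.67 and 6.91 in intestine without Nanog, 9.66 and 9.82 in intestine with Nanog, 12.09 and 12.00 in colon without Nanog and 12.63 and 11.79 in colon with Nanog. The arrays of intestine with Nanog were both above those without, the colon arrays were above all intestine arrays, and the arrays of colon with and without Nanog overlapped. The log2 difference in intestine was 2.95 ± 0.31 (SE, limma adjusted p = 0.0200), with a 95% interval from 2.23 to 3.67. It passed in 12 of 20 alternative settings and ranged from 2.34 to 3.17 over them. Leaving out 1 array ended the call without intestine with Nanog replicate 1 (limma adjusted p = 0.0510) or replicate 2 (0.132) and without colon without Nanog replicate 1 (0.0960) or replicate 2 (0.0980).

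The promoter of Sult1a1 is shown because this gene carried the Nanog call and a tissue difference of the opposite sense to most members, and that of Ugt2a3 because it was read in intestine alone. Both are RefSeq sequences of build GRCm38.p6, 250 bases before to 50 bases after the start site, printed 5′ to 3′ on the gene's strand, with matches to the searched motifs in capitals. Sult1a1 lies at chr7:126676369-126676668 on the minus strand and Ugt2a3 at chr5:87337146-87337445 on the minus strand.
Sult1a1: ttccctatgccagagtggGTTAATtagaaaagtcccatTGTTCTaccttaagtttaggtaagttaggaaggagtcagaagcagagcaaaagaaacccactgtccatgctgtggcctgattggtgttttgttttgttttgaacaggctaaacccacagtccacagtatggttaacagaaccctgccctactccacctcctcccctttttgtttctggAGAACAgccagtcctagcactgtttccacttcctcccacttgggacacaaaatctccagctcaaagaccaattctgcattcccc
Ugt2a3: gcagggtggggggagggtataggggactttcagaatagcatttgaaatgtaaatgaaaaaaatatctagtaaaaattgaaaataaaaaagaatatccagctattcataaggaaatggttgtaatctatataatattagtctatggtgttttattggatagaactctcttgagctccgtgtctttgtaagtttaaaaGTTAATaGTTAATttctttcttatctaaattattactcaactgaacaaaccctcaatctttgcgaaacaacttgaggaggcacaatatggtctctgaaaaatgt

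The motifs searched on both strands were TGACNNNGC (antioxidant response element), GTTAAT (HNF1), TTTATG (CDX), TGTTCT (glucocorticoid receptor), TAATGG (Nanog) and GCGTG (xenobiotic response element). They occur in 12.4%, 7.1%, 11.9%, 19%, 7.73% and 32.4% of the 32851 promoters of the same length in the RefSeq table. The Sult1a1 window holds GTTAAT at position -232 from the start site, TGTTCT at -212 and its reverse complement AGAACA at -34. The Ugt2a3 window holds GTTAAT at -54 and again at -47. These are matches of letters, and binding was not measured. Of the 49 members 46 had an entry in the table, and of their 57 promoters 3, 7, 5, 16, 5 and 12 held the motifs in the order given.

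The Gst and Mgst genes gave no call in intestine. Mgst1, a membrane-bound glutathione transferase of endoplasmic reticulum and mitochondria, came nearest. Its levels were 11.44 and 11.50 in intestine without Nanog, 12.91 and 12.72 in intestine with Nanog, 10.24 and 10.88 in colon without Nanog and 11.10 and 10.67 in colon with Nanog. The arrays of intestine with Nanog were both above those without, and in colon they overlapped. The difference was 1.35 ± 0.29 in intestine (limma adjusted p = 0.200) and 0.32 ± 0.29 in colon (limma adjusted p = 0.700), and a further probe of Mgst1 gave 1.35 and 0.47.

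Gsta3, an alpha-class enzyme that in mouse detoxifies aflatoxin epoxide, had the levels 10.40 and 10.84 in intestine without Nanog, 8.25 and 10.39 in intestine with Nanog, 9.21 and 9.96 in colon without Nanog and 8.25 and 8.50 in colon with Nanog. Both arrays with Nanog were below both arrays without in each tissue, in intestine by a narrow margin between the nearest arrays. The differences of -1.30 ± 0.65 in intestine and -1.21 ± 0.65 in colon did not pass (limma adjusted p = 0.645 and 0.507). Gsta4, which conjugates the lipid peroxidation product 4-hydroxynonenal, had the levels 7.93 and 12.09 in intestine without Nanog, 11.52 and 11.62 in intestine with Nanog, 9.71 and 8.85 in colon without Nanog and 10.71 and 10.30 in colon with Nanog. In colon both arrays with Nanog were above those without, while in intestine the arrays without Nanog lay on either side of those with Nanog. The differences of 1.56 ± 1.15 and 1.23 ± 1.15 did not pass (limma adjusted p = 0.763 and 0.716). Without replicate 2 of intestine without Nanog, Gsta4 was called in intestine and on average of the tissues, the latter at 2.43 (limma adjusted p = 0.0136).

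Gstp3, of the pi class, had the levels 6.96 and 6.75 without and 7.20 and 7.69 with Nanog in intestine, and 6.91 and 7.34 without and 6.95 and 7.24 with Nanog in colon. The intestine arrays with Nanog were above those without and the colon arrays overlapped, with differences of 0.59 ± 0.28 and -0.02 ± 0.28. Mgst3, a membrane-bound enzyme with glutathione peroxidase activity, had 12.39 and 12.88 without and 11.74 and 12.39 with Nanog in intestine, and 12.55 and 12.41 without and 12.57 and 12.24 with Nanog in colon. Its arrays overlapped in both tissues. Gsto1, an omega-class enzyme that reduces dehydroascorbate, had 12.54 and 13.81 without and 12.76 and 12.91 with Nanog in intestine, and 12.38 and 12.38 without and 12.44 and 11.85 with Nanog in colon, again with overlapping arrays in both tissues.

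All 6 tested Ugt genes had lower values with Nanog in intestine, with a median of -0.74 and none past the threshold (lowest limma adjusted p = 0.573). The direction of Ugt2b35 turned with 1 array left out, to 0.34 without replicate 2 of intestine without Nanog and to 0.20 without replicate 1 of intestine with Nanog. 1 of the 6, Ugt2a3, had arrays that did not overlap, beside 32.5% of all genes, 15.5% in the lower direction. In colon 5 of the 6 were lower, with a median of -0.22 (lowest limma adjusted p = 0.555). The values were lower on average of the tissues for all 6, between -0.55 and -0.32, and none was called.

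In colon with Nanog 0 of 33 members were called against colon without Nanog, beside 0.221% of all genes (19 of 8607, 0.151% higher and 0.0697% lower). At an unadjusted p under 0.05 there were 2 members, beside 12.5% of all genes. These were Sult1d1 and Sult2b1. The median of the members was -0.02, beside -0.01 for all genes, with 16 higher and 17 lower.

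Sult1d1, which in mouse sulfates catecholamines, had the levels 9.99 and 10.83 in intestine without Nanog, 10.99 and 11.47 in intestine with Nanog, 9.54 and 8.68 in colon without Nanog and 10.45 and 10.41 in colon with Nanog. Both arrays with Nanog were above both without in each tissue. The difference was 1.32 ± 0.39 in colon (limma adjusted p = 0.259) and 0.82 ± 0.39 in intestine (limma adjusted p = 0.625). Sult2b1, which sulfates cholesterol, had the levels 11.50 and 9.69 in intestine without Nanog, 10.80 and 10.14 in intestine with Nanog, 8.47 and 9.004 in colon without Nanog and 7.46 and 6.98 in colon with Nanog. The colon arrays with Nanog were below those without, and the intestine arrays overlapped. The difference in colon was -1.51 ± 0.58 (limma adjusted p = 0.361), and 2 further probes gave -0.99 and -1.22.

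Sult4a1, a brain sulfotransferase with no established substrate, had 6.60 and 6.19 without and 6.94 and 6.15 with Nanog in intestine, and 6.37 and 6.75 without and 6.09 and 5.91 with Nanog in colon. The colon arrays with Nanog were below those without, by -0.56 ± 0.32 (limma adjusted p = 0.535), and the intestine arrays overlapped. Gstm5, of the mu class, had 8.13 and 9.18 without and 8.51 and 9.21 with Nanog in intestine, and 9.21 and 9.58 without and 9.81 and 10.17 with Nanog in colon. Its colon arrays with Nanog were above those without, by 0.60 ± 0.41 (limma adjusted p = 0.606).

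**Figure D2:**
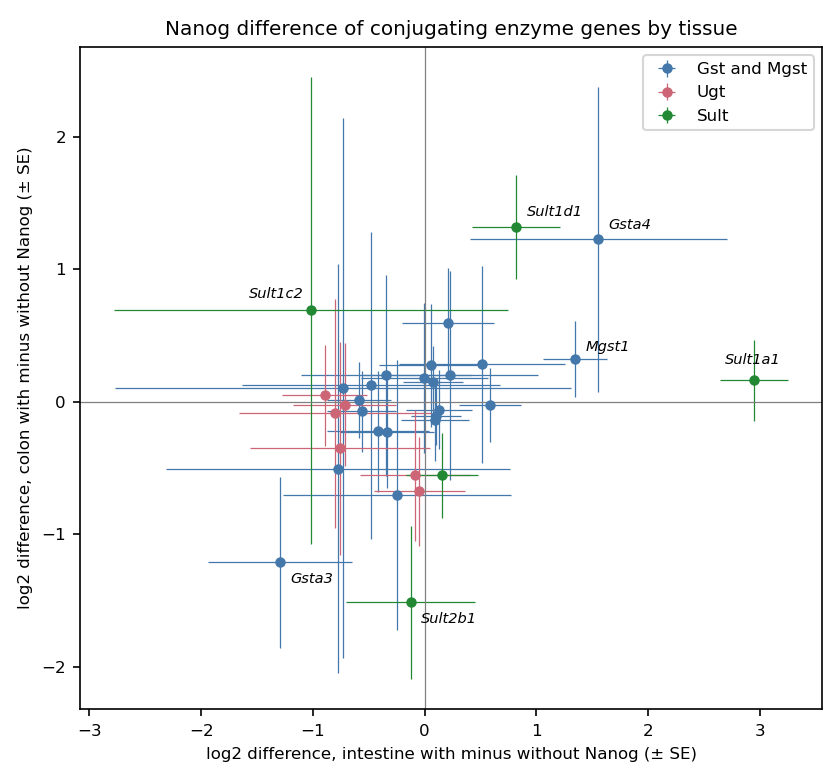
Nanog difference of each of the 33 tested members in intestine (x axis) and in colon (y axis), in log2 units with SE bars from the pooled fit. Sult1a1 stands at 2.95 in intestine and 0.16 in colon, Sult1d1 is above 0 in both tissues, and Gsta3 is below 0 in both.

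The arrays with and without Nanog did not overlap for 7 members in intestine (4 higher, 3 lower), where 32.5% of all genes did not overlap, and for 15 members in colon (7 higher, 8 lower), beside 52.9% of all genes. By direction the shares of all genes were 17% higher (1466 genes) and 15.5% lower (1333 genes) in intestine, and 26.3% higher and 26.6% lower in colon. In both tissues and in the same direction this held for 2 members, Sult1d1 higher and Gsta3 lower, beside 14.9% of all genes. At 7, 15 and 2 of 33, the members' shares were not above those of all genes.

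Averaged over the tissues, Sult1a1 was the only member called, beside 1.20% of all genes (103 of 8607, 0.720% higher and 0.476% lower). At an unadjusted p under 0.05 there were 4 members, beside 16.5% of all genes. Its difference was 1.56 ± 0.22 (limma adjusted p = 0.0328), but the colon part was 0.16 ± 0.31 and the arrays overlapped there. The average call was lost without either array of intestine with Nanog, colon without Nanog or colon with Nanog, at limma adjusted p from 0.05003 to 0.150. Sult1d1 had 1.07 ± 0.28 (limma adjusted p = 0.133), Mgst1 0.83 ± 0.20 (0.116) and Gsta3 -1.26 ± 0.46 (0.243).

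Whether the Nanog difference itself differed between tissues was tested as colon minus intestine. By limma 0 of 33 members and 0 of 8607 genes were called. At an unadjusted p under 0.05 there were 2 members, Sult1a1 and Mgst1, and 4.19% of all genes. Sult1a1 had -2.79 ± 0.43 (limma adjusted p = 0.444, 95% interval from -3.81 to -1.77) and Mgst1 -1.03 ± 0.40 (limma adjusted p = 0.998). A difference of Sult1a1 between the tissues in its response to Nanog was therefore not established.

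**Figure D3:**
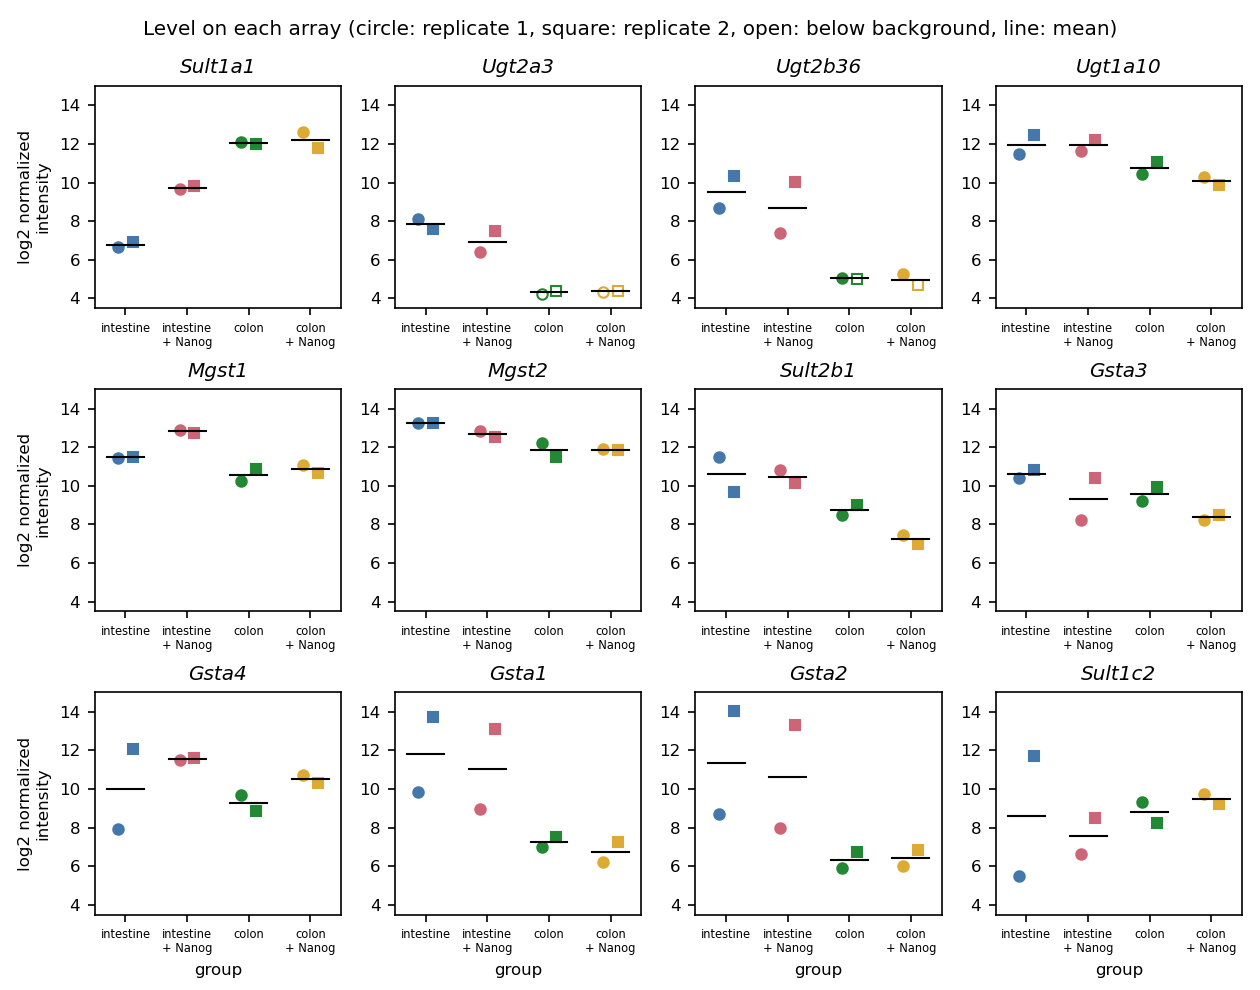
Normalized log2 intensity of 12 members on each of the 8 arrays, with circles for replicate 1, squares for replicate 2, open symbols for arrays where the probe was below background, and a line at the group mean. Sult1a1 steps from intestine without Nanog to intestine with Nanog to colon, Ugt2a3 is below background in colon, and Gsta1, Gsta2 and Sult1c2 are spread widely between the replicates of intestine.

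Colon against intestine gave the larger differences. Without Nanog, 4 of 33 members were called, beside 5.50% of all genes (473 of 8607). Sult1a1 was higher in colon, beside 2.44% of all genes, and Ugt2a3, Ugt2b36 and Mgst2 were lower, beside 3.06%. With Nanog, 5 members were called, beside 6.65% of all genes (572 of 8607), with Sult1a1 again higher and Ugt2a3, Mgst1, Sult2b1 and Ugt1a10 lower, beside 3.18% and 3.46% of all genes. At an unadjusted p under 0.05 there were 13 members without and 12 with Nanog, beside 20.8% and 22.0% of all genes. The members were lower in colon in 24 of 33 cases without Nanog and 26 of 33 with Nanog, beside 41.4% and 42.2% of all genes. These cases include Ugt2a3 and Ugt2b36, which were tested only through the intestine groups. The median differences of the members were -0.79 and -0.71, beside 0.11 and 0.10 for all genes. The comparisons without and with Nanog share no array with each other, but both use arrays of the Nanog comparisons above. They are not independent, since all 8 arrays were normalized together and gave 1 shared estimate of the spread for each gene.

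Of the 6 tested Ugt genes 2 were called lower in colon in each comparison, Ugt2a3 and Ugt2b36 without Nanog and Ugt2a3 and Ugt1a10 with Nanog. By the probe used, the difference was below 0 for 6 of 6 in each, beside 41.4% and 42.2% of all genes. Of these, Ugt2a3 and Ugt2b36 met the background filter only through the intestine groups. Their lower values in colon are therefore not independent of the filter. The medians were -1.42 without and -1.97 with Nanog, or -1.87 with Ugt2a3 at its bound. Ugt2a3, which in human glucuronidates bile acids, had the levels 8.09 and 7.58 in intestine without Nanog, 6.38 and 7.49 in intestine with Nanog, 4.26 and 4.38 in colon without Nanog and 4.34 and 4.39 in colon with Nanog. All intestine arrays were above all colon arrays, and the probe was below background on all 4 colon arrays, as it was for 1.63% of all genes. Colon was therefore at least 7.12-fold lower without Nanog (limma adjusted p = 0.00304) and at least 3.73-fold lower with Nanog (limma adjusted p = 0.0111). For such a bound, each dim array was set at the weakest signal that counted as above background on it, or at the probe's own signal if that was stronger, and the mean was compared with the bright group's. The other Ugt2a3 probe was above background on none of the 8 arrays, so it gave no reading in either tissue. The call without Nanog passed in 19 of 19 alternatives. The call with Nanog was lost without either array of colon with Nanog, at limma adjusted p up to 0.0953.

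Ugt2b36, of the steroid- and bile acid-conjugating 2B subfamily, had the levels 8.66 and 10.35 in intestine without Nanog, 7.40 and 10.01 in intestine with Nanog, 5.08 and 5.03 in colon without Nanog and 5.25 and 4.68 in colon with Nanog. The intestine arrays were all above the colon arrays, where 1 of 2 arrays in each group was above background. The difference was -4.45 ± 0.86 without Nanog (limma adjusted p = 0.0324) and -3.74 ± 0.86 with Nanog (limma adjusted p = 0.05001, just over the threshold). A further probe of Ugt2b36 was above background on the 4 intestine arrays and on none of the 4 colon arrays. Of the processing settings, the call without Nanog was lost without background correction, with an offset of 50 and without a detection filter. The difference with Nanog passed with the authors' values, median scaling, cyclic loess and the mean of a gene's probes. It also passed with the replicate block, the variance setting and array weights. The call without Nanog was lost without intestine without Nanog replicate 2 or any of the 4 colon arrays, at limma adjusted p up to 0.181. With Nanog the gene passed when replicate 1 or 2 of intestine without Nanog (limma adjusted p = 0.0357 and 0.0321) or replicate 1 of intestine with Nanog (0.0175) was left out.

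Ugt1a10 and Ugt1a6a come from the Ugt1a locus, whose products share their last exons and whose first exons set the substrate. Ugt1a10 had the levels 11.48 and 12.46 in intestine without Nanog, 11.65 and 12.20 in intestine with Nanog, 10.43 and 11.08 in colon without Nanog and 10.29 and 9.87 in colon with Nanog. Every colon array was below every intestine array. The difference was -1.22 ± 0.41 without Nanog (limma adjusted p = 0.153) and -1.85 ± 0.41 with Nanog (0.0447). The call with Nanog passed in 2 of the 8 fits with 1 array left out, those without an array of intestine without Nanog, and reached a limma adjusted p of 0.259 in the others, which leave out any array of intestine with Nanog, colon without Nanog or colon with Nanog.

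Ugt1a6a, a phenol-conjugating enzyme, had the levels 8.46 and 9.14 in intestine without Nanog, 8.01 and 9.42 in intestine with Nanog, 6.89 and 7.48 in colon without Nanog and 6.81 and 6.45 in colon with Nanog. Every colon array was below every intestine array. The differences of -1.61 ± 0.49 and -2.08 ± 0.49 did not pass (limma adjusted p = 0.122 and 0.0548). A further Ugt1a6a probe, above background on 6 arrays, gave 0.21 and 0.75, so the probes of this gene disagreed. Which exons the probes read was not analysed here.

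Ugt2b34 had the levels 9.64 and 10.30 without and 8.56 and 9.94 with Nanog in intestine, and 8.96 and 8.64 without and 8.90 and 8.66 with Nanog in colon. Without Nanog its colon arrays were below its intestine arrays, by -1.17 ± 0.46 (limma adjusted p = 0.211), and with Nanog the arrays overlapped. Ugt2b35 had the levels 6.99 and 9.18 without and 6.38 and 8.28 with Nanog in intestine, and 7.14 and 6.80 without and 6.51 and 6.73 with Nanog in colon, with overlap in both comparisons and differences of -1.11 ± 0.80 and -0.71 ± 0.80.

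Among the sulfotransferases, Sult1a1 was 38.3-fold higher in colon than in intestine without Nanog, a difference of 5.26 ± 0.31 (limma adjusted p = 0.000249), and 5.54-fold higher with Nanog, 2.47 ± 0.31 (limma adjusted p = 0.00559). Both calls passed in 20 of 20 alternatives. Without replicate 2 of both Nanog groups, a setting chosen after seeing the data, the difference with Nanog was 2.89 and missed the threshold (limma adjusted p = 0.0659). Sult2b1 went the other way, with -1.85 ± 0.58 without Nanog (limma adjusted p = 0.128) and -3.24 ± 0.58 with Nanog (limma adjusted p = 0.0227). All 3 Sult2b1 probes were lower in colon, between -1.85 and -1.75 without and between -3.24 and -2.86 with Nanog. Of the fits with 1 array left out, the Sult2b1 call passed only in the 2 without an array of intestine without Nanog. It was lost without any other array, at limma adjusted p up to 0.160, and without intestine without Nanog replicate 2 the difference without Nanog was called as well, at -2.75 (0.0121). Sult1d1 was lower in colon by -1.30 ± 0.39 without (limma adjusted p = 0.119) and -0.80 ± 0.39 with Nanog (0.294), with no overlap in either comparison.

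**Figure D4:**
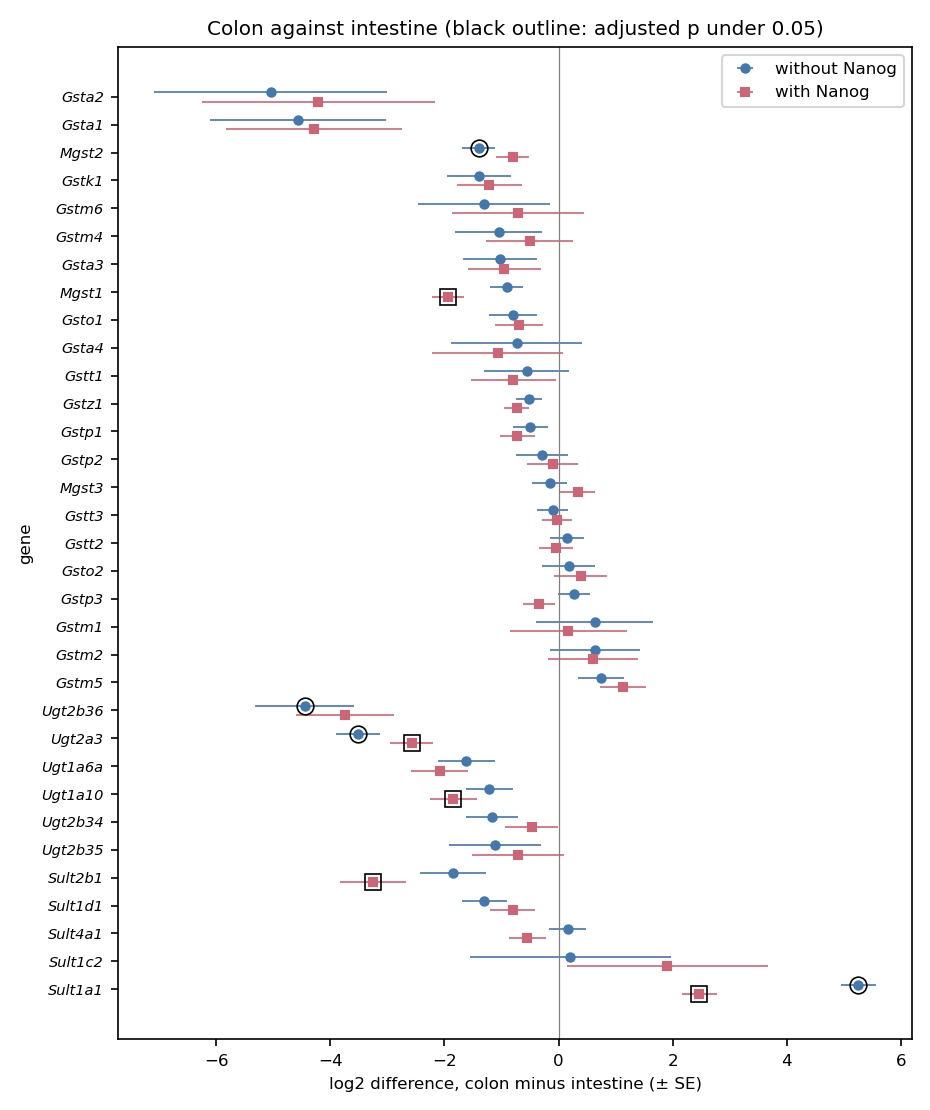
Colon minus intestine for each of the 33 tested members, in log2 units with SE bars, without Nanog (circles) and with Nanog (squares), and a black outline where the adjusted p was under 0.05. All 6 Ugt genes lie below 0 in both comparisons, and Sult1a1 lies at 5.26 without and 2.47 with Nanog.

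Of the membrane-bound Mgst genes, Mgst2, which can also make leukotriene C4, had the levels 13.27 and 13.23 in intestine without Nanog, 12.83 and 12.51 in intestine with Nanog, 12.22 and 11.49 in colon without Nanog and 11.89 and 11.84 in colon with Nanog. Every colon array was below every intestine array. The difference was -1.40 ± 0.29 without Nanog (limma adjusted p = 0.0389) and -0.80 ± 0.29 with Nanog (0.160). The call passed in 9 of 20 alternatives and, with 1 array left out, only without colon without Nanog replicate 1 (limma adjusted p = 0.0467). It was lost without any other array, at up to 0.157. Mgst1 was lower in colon with Nanog by -1.93 ± 0.29 (limma adjusted p = 0.0111) and without Nanog by -0.91 ± 0.29 (0.130). The Mgst1 call was lost without intestine with Nanog replicate 2, colon with Nanog replicate 1 or replicate 2 (limma adjusted p = 0.0622, 0.0561 and 0.108).

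The Gst genes other than Mgst gave no call between tissues. Gstz1, the maleylacetoacetate isomerase of tyrosine breakdown, had 9.30 and 9.28 without and 9.18 and 9.60 with Nanog in intestine, and 8.73 and 8.80 without and 8.69 and 8.63 with Nanog in colon, with every colon array below every intestine array. Its differences of -0.52 ± 0.22 and -0.73 ± 0.22 did not pass (limma adjusted p = 0.246 and 0.113). Gstm5, described above, had 0.74 ± 0.41 and 1.13 ± 0.41 (limma adjusted p = 0.364 and 0.168), with the colon arrays above the intestine arrays in both comparisons. Gsto1 had -0.79 ± 0.42 and -0.69 ± 0.42, with no overlap in either. The mitochondrial and peroxisomal Gstk1 had -1.39 ± 0.57 and -1.21 ± 0.57, again with no overlap and no call (limma adjusted p = 0.224 and 0.267).

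The pi- and theta-class genes differed between tissues by less than 1 log2 unit. The 3 Gstp genes lay between -0.72 and 0.27 and the 3 Gstt genes between -0.79 and 0.15 over both comparisons. Gstp1 had the -0.72, with Nanog, where its colon arrays were below its intestine arrays without overlap. In the mu class, Gstm1 (0.63 and 0.17) and Gstm2 (0.63 and 0.61) had higher values in colon, and Gstm4 (-1.05 and -0.50) and Gstm6 (-1.31 and -0.71) lower ones. None of these passed. The SE of Gstm1 was 1.02 and that of Gstm6 1.16, against 0.30 for Gstp1.

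Without Nanog the colon and intestine arrays did not overlap for 18 members, beside 48.1% of all genes. Of these 16 were lower in colon and 2 higher, beside 17.9% and 30.2% of all genes. With Nanog they did not overlap for 19 members, beside 58.7%, with 16 lower and 3 higher, beside 23.6% and 35.1%. The colon arrays were lower without overlap in both comparisons for 13 of 33 members (7 Gst or Mgst, 4 Ugt and 2 Sult), beside 11.4% of all genes. Among the 13 are Ugt2a3 and Ugt2b36, which were tested only through the intestine groups. The colon arrays were above without overlap in both for 2 members, Sult1a1 and Gstm5, beside 18.5% of all genes. The 5 tested enterocyte markers had mean levels between 11.19 and 13.09 on the intestine arrays and between 5.14 and 5.74 on the colon arrays. Without Nanog 4 of these markers were lower in colon and 1, Mep1a, was higher, by 0.33. With Nanog all 5 markers were lower. Their part in the member differences was not tested.

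The widest spread of the members lay between replicates of intestine. Gsta1, an alpha-class enzyme that acts on lipid peroxides, had the levels 9.87 and 13.73 in intestine without Nanog, 8.96 and 13.09 in intestine with Nanog, 6.97 and 7.50 in colon without Nanog and 6.22 and 7.24 in colon with Nanog. Gsta2, its close relative, had 8.70 and 14.04 in intestine without Nanog, 7.97 and 13.31 in intestine with Nanog, 5.92 and 6.73 in colon without Nanog and 6.04 and 6.82 in colon with Nanog. In both genes replicate 2 was far above replicate 1 in both intestine groups, and every intestine array was above every colon array. The differences between replicates 2 and 1 were 3.85 and 4.12 for Gsta1 and 5.34 for Gsta2 in both groups.

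The colon against intestine differences of Gsta1 and Gsta2, between -5.04 and -4.21 with SE of 1.54 and 2.04, did not pass (limma adjusted p from 0.154 to 0.284). A probe that reads both transcripts could not be looked for, since the probe sequences were not used here. Their promoters are shown because the genes varied together across arrays. They are RefSeq sequences of GRCm38.p6 at chr9:78230419-78230718 on the plus strand for Gsta1 and chr9:78347096-78347395 on the minus strand for Gsta2, printed as above with motif matches in capitals.
Gsta1: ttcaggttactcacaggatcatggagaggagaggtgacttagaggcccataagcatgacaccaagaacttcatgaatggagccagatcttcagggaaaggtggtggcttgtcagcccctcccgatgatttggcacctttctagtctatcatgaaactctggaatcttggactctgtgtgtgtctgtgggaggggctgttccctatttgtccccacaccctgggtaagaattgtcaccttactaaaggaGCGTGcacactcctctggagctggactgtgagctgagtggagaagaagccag
Gsta2: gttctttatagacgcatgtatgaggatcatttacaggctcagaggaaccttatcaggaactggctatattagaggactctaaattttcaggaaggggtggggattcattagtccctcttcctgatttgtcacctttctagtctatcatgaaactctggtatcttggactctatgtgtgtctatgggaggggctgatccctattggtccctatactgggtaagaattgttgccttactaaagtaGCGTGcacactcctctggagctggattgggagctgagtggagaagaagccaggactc

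Aligned over 289 bases, the windows of Gsta1 and Gsta2 were identical at 230, or 79.6%. Both hold GCGTG close to the start site, from -2 in Gsta1 and from -7 in Gsta2, and no other searched motif.

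Sult1c2 had the levels 5.50 and 11.70 in intestine without Nanog, 6.65 and 8.51 in intestine with Nanog, 9.33 and 8.26 in colon without Nanog and 9.75 and 9.23 in colon with Nanog. Replicate 2 was above replicate 1 by 6.20 without and 1.86 with Nanog in intestine, so its Nanog difference there of -1.02 ± 1.76 has no settled direction. It was 2.08 without replicate 2 of intestine without Nanog. Across the 33 members, replicate 2 exceeded replicate 1 by more than 1 log2 unit in both intestine groups for 11 (8 Gst, 2 Ugt and 1 Sult), or 33.3%, beside 1.77% of all genes. These were Gsta1, Gsta2, Gstk1, Gstm1, Gstm2, Gstm4, Gstm6, Gstt1, Ugt2b35, Ugt2b36 and Sult1c2. No member was lower by as much in both, beside 2.07% of all genes, and the difference was positive in both groups for 26 of 33, beside 24.3% of all genes. In colon 0 members and 0.279% of all genes exceeded that size in both groups.

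**Figure D5:**
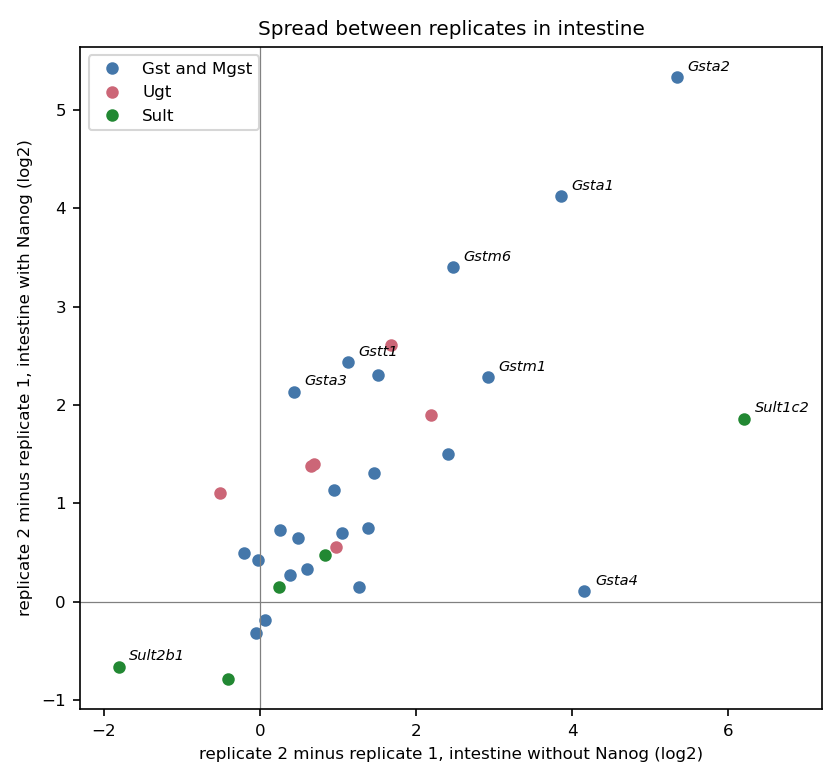
Replicate 2 minus replicate 1 of the 33 tested members in intestine without Nanog (x axis) and with Nanog (y axis), in log2 units. Most points lie above 0 on both axes, with Gsta2 at 5.34 on each axis, and Sult2b1 lies below 0 on both.

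The median SD between replicates was 0.69 over the members in intestine without Nanog and 0.56 with Nanog, beside 0.29 and 0.23 over all genes. In colon it was 0.28 and 0.17, beside 0.21 and 0.14. Markers of other cells differed between the same arrays. The 12 tested pancreatic acinar genes had mean levels of 5.66 and 10.48 on replicates 1 and 2 of intestine without Nanog and 5.94 and 14.31 with Nanog, and 12 of 12 were above background on each replicate 2 and 4 on each replicate 1. In colon their mean was 5.46 and 7.63 without and 8.03 and 13.81 with Nanog.

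The 3 tested hepatocyte genes were Ttr, and Cps1 and Apoc3, which enterocytes also express. Their mean levels were 9.999 and 11.43 without and 9.72 and 12.51 with Nanog in intestine. The 3 genes did not move alike. Ttr had 6.03 and 11.06 without and 5.64 and 12.93 with Nanog. Cps1 had 9.96 and 10.52 without and 10.94 and 11.22 with Nanog. Apoc3 had 14.01 and 12.70 without and 12.60 and 13.36 with Nanog. The albumin probe was below background on all 8 arrays. The hepatocyte genes Ahsg, Fga and Apoh were each above background on 1 array, replicate 2 of intestine with Nanog. Of the Serpina1a probes 1 was above background on 1 array, with 8.005 on that replicate, and the other on 2 arrays. Fgb and Tat were below background on all 8 arrays. The 5 tested enterocyte markers had means of 13.09 and 11.19 without and 12.36 and 11.38 with Nanog, and did not all run the same way. Anpep, Mep1a and Sis were lower on replicate 2 in both groups, Apoa1 was higher on it in both, and Apoa4 was lower on it without and higher with Nanog. Anpep, an aminopeptidase of the brush border, had 13.81 and 10.16 without and 12.98 and 10.02 with Nanog. Fabp6, an ileal bile acid-binding protein named after its values were seen, had intensities of 332 and 110.0 without and 10566 and 86.2 with Nanog. The part of these differences between arrays in the member values was not tested.

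Genes around the conjugating enzymes were taken from lists of co-substrate supply, conjugate export, xenobiotic sensing and related enzymes, 37 tested in all. With Nanog 0 of the 37 were called in either tissue or on average, and the lowest limma adjusted p were 0.327, 0.281 and 0.137. At an unadjusted p under 0.05 there were 3 in intestine, 6 in colon and 7 on average, beside 8.69%, 12.5% and 16.5% of all genes. Between tissues 1 was called higher and 5 lower in colon without Nanog, beside 2.44% and 3.06% of all genes. With Nanog 0 were called higher and 8 lower, beside 3.18% and 3.46%. Among these calls, Slc26a2 was tested only through the colon groups, and Abcc2, Nr1i3 and Ppara only through intestine groups.

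Abcc2, which exports glutathione, glucuronide and sulfate conjugates from the cell, was below background on all 4 colon arrays, at least 14.9-fold lower without Nanog (limma adjusted p = 0.00222) and at least 10.8-fold lower with Nanog (0.00302). Abcc2 was tested only through the intestine groups, so its calls are not independent of the background filter. Bpnt1, which clears the product that sulfotransferases make from PAPS, was lower in colon by -2.82 ± 0.55 without (limma adjusted p = 0.0326) and -2.69 ± 0.55 with Nanog (0.0346). Slc26a2, a sulfate transporter, was higher in colon without Nanog by 2.26 ± 0.39 (limma adjusted p = 0.0225). In each intestine group it was above background on 1 of 2 arrays. It met the background filter only through the colon groups, so its call is not independent of that filter. Gclm, the modifier subunit of glutathione synthesis, was lower in colon with Nanog by -1.17 ± 0.25 (limma adjusted p = 0.0396).

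The xenobiotic receptor Nr1i3, known as CAR, was below background on all 4 colon arrays, at least 7.72-fold lower without (limma adjusted p = 0.00359) and at least 5.28-fold lower with Nanog (0.00679). Nr1i3 met the background filter only through the intestine groups, so its calls are not independent of that filter. Nr1i2, the pregnane X receptor, was lower in colon with Nanog by -1.37 ± 0.23 (limma adjusted p = 0.0187), and Ppara at least 1.55-fold (0.0146). Ppara was above background only in intestine with Nanog, at 5.79 and 5.55. It was tested only through that group, so its call is not independent of the background filter. Of the 7 tested Nrf2 target genes 1 was called in each tissue comparison, Osgin1, lower in colon by -1.62 ± 0.27 without (limma adjusted p = 0.0188) and -2.12 ± 0.27 with Nanog (0.00629). The other 6 did not pass in either, and Hmox1, below background in both tissues without Nanog, had a difference of 0.50 with Nanog. Ephx2, the soluble epoxide hydrolase, was lower by -3.70 ± 0.37 without and -3.44 ± 0.37 with Nanog (limma adjusted p = 0.00228 and 0.00320).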

How the data were processed

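Total RNA was labelled as biotin cRNA, per the labels. BeadStudio 3.2, RMA and lumi were used, per the submitters' processing notes, which give no role for each. For each probe the authors deposited an intensity, unscaled between arrays, and a detection p-value. The authors' normalized values, deposited on a log2 scale, served as an alternative. No value column was left out (0).

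Intensities were background-corrected in limma 3.58.1 (R 4.3.3) by the normal-exponential model from the detection p-values (offset 16), quantile-normalized and taken to log2. The highest probe stood for a gene. Gene symbols are those of the platform annotation, which named no gene for 1719 of 25697 probes. The limma model had 1 mean for each of the 4 groups over 8 arrays (4 residual and 3.07 prior degrees of freedom), with calls at an adjusted p under 0.05 over 8607 genes, and the script was tested on simulated data.

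Members and lists were chosen with earlier results of these data known. Array values are printed for called members, the 3 smallest p per family and comparison, and the 3 highest mean signals per family. Gsta2 was added after its values were seen. Alternatives were the authors' values, background, offset, scaling, filter, probe, block, variance, weight and subset settings, and each array left out.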

Additional observations from a re-analysis of the deposited data

How the results depend on the processing

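The number of members called in intestine with Nanog, 1, was 0 under median scaling, without a detection filter, with array weights, with only the 4 arrays compared, and 0 to 2 with 1 array left out. On average of the tissues it was 0 under median scaling, without a filter and with weights, and 0 to 2 with 1 array left out. Between tissues without Nanog, 4 became 2 without a filter or with detection on all 8 arrays, and 2 to 4 with 1 array left out. With Nanog, 5 became 3 without background correction or a filter, and 1 to 7 with 1 array left out. In colon and for the difference between tissues it was 0 in every setting run. Of settings chosen after seeing the data, leaving out both Nanog replicates 2 gave 0 in intestine, on average and between tissues with Nanog. Leaving out both intestine replicates 2 gave 0 in intestine, 2 on average (Gsta3 at -1.67 and Gsta4 at 2.38) and 10 between tissues without Nanog. With the replicate number as a block within tissue, 7 members were called between tissues without and 11 with Nanog. These include Gst genes with no call in the report, Gsta1 (-4.56 without Nanog), Gsta2 and Gstk1 in both comparisons and Gstm5 with Nanog. Ugt1a6a and Ugt2b36 were also called with Nanog in that fit. That fit takes the difference shared by replicates 1 and 2 out of the spread, and it changed neither Nanog count. Differences between replicates correlated over genes between the groups without and with Nanog (r = 0.468 in intestine, 0.144 in colon) and between the tissues (r = 0.308 without and 0.429 with Nanog). With 2 replicate numbers and no label for pairing, the numbers were not taken as pairs. With 1 array left out the Nanog difference in intestine ranged from -4.09 to 2.08 for Sult1c2 and from -1.83 to 0.34 for Ugt2b35. That of Sult1c2 changed sign, to 2.08 without replicate 2 of intestine without Nanog and 1.19 without both intestine replicates 2. That of Ugt2b35 became 0.34 without the same array and 0.20 without replicate 1 of intestine with Nanog. Median scaling moved the median of all genes to -0.38 for Nanog in intestine, -0.17 on average, 0.40 between tissues with Nanog and 0.41 for the difference, and 27 of 33 members were then lower with Nanog in intestine, beside a member median of -0.48. The cause was not tested. A group left with 1 array is assumed to vary like the others. Precision is limited by 2 arrays per group, and probes near background give only bounds.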
